A study of Mus musculus with 14 samples.

Results

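Peroxiredoxins, catalase, glutathione peroxidases and superoxide dismutase are the enzymes that keep hydrogen peroxide and its precursor low inside cells. The 10 genes described here were chosen by name: the peroxiredoxins Prdx1, Prdx2, Prdx3, Prdx4, Prdx5 and Prdx6, catalase (Cat), the glutathione peroxidases Gpx1 and Gpx4, and the cytosolic dismutase Sod1. All 10 were listed in both sets of RNA libraries, among 23647 gene symbols (OB set) and 54632 (PD set). The RNA came from progenitors of the red cell lineage called BFU-E (burst-forming unit-erythroid), taken from C57BL/6 mouse fetal liver and cultured in StemSpan SFEM II medium. There were 4 groups of 3 libraries: cells given compound OB at 100 µM, cells given the solvent DMSO as the control of compound OB, cells given compound PD at 3 nM, and a separate DMSO control of compound PD. No genetic change was named for any group, and embryonic age, time in culture and the structure of the compounds were not given in the sources used here. Whether the 3 libraries of a group are 3 cultures or animals is not said in the labels, so the p-values measure the spread between these libraries, which may be technical. The 2 chromatin samples of the series (CREB-bound DNA and the input DNA) are not analysed here.

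Peroxiredoxins are thiol peroxidases: a reactive cysteine takes the oxygen from peroxide, and thioredoxin or glutathione returns the enzyme to its reduced form with electrons from NADPH. Catalase, a heme enzyme of the peroxisome, splits hydrogen peroxide without a reducing partner, the glutathione peroxidases spend glutathione, and superoxide dismutase makes the peroxide from superoxide. In red cells, whose hemoglobin continually releases superoxide, peroxiredoxin 2 is one of the most abundant proteins, and mice without it have a hemolytic anemia. The members also differ in place: Prdx1, Prdx2 and Sod1 act mainly in the cytosol, Prdx3 in mitochondria, Prdx4 in the endoplasmic reticulum, and Prdx5 in mitochondria, peroxisomes and cytosol. Prdx6 has a phospholipase activity beside its peroxidase activity, Gpx1 is the main selenium-dependent peroxidase of the cytosol, and Gpx4 reduces lipid peroxides within membranes.

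The genes lie on separate chromosomes except for one pair. In RefSeq's annotation of GRCm38.p6 the peroxiredoxins are at chr4:116685599-116700000 (Prdx1), chr8:84969622-84974811 (Prdx2), chr19:60864066-60874538 (Prdx3), chrX:155323918-155342272 (Prdx4), chr19:6906697-6910106 (Prdx5) and chr1:161240112-161251210 (Prdx6). Cat is at chr2:103453904-103485153, Gpx1 at chr9:108339080-108340342, Gpx4 at chr10:80047166-80056439 and Sod1 at chr16:90220762-90226333. RefSeq promoters of this build were found for 9 of the 10 members, in 12 windows. The 250 bases before the start are shown here for the 4 members that the results on ratios turn on, 5′ to 3′ on the gene's strand. Cat (reverse strand, chr2:103485154-103485403) and Prdx1 (forward strand, chr4:116685349-116685598) are the members whose libraries did not overlap between compound OB and DMSO. Prdx5 (reverse strand, chr19:6910107-6910356) and Prdx3 (reverse strand, chr19:60874539-60874788) differed from DMSO with opposite signs after compound PD. Capitals mark matches, on either strand, to 4 motifs, which are the CCAAT box with the letters of its name, the antioxidant response element TGACNNNGC, the core TGACG of the cAMP response element, and the erythroid factor motif GATAA.
Cat: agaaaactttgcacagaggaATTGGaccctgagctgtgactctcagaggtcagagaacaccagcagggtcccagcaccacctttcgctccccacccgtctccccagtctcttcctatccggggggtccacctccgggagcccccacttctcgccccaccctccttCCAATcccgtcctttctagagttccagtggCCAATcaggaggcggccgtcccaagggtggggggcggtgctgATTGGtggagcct
Prdx1: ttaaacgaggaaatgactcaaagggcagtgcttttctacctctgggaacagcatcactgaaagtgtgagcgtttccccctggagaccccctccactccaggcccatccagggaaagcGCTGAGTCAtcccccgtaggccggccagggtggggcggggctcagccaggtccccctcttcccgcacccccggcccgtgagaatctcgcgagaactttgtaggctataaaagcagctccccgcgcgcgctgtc
Prdx5: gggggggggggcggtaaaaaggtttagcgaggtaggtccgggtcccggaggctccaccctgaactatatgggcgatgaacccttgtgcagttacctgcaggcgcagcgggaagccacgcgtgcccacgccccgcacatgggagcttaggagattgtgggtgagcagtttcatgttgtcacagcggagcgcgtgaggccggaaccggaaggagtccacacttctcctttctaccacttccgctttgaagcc
Prdx3: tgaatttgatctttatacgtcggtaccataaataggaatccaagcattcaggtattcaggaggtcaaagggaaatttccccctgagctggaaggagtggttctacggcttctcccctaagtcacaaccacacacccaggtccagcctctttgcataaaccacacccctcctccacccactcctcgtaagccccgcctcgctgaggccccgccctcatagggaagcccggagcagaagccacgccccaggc
The Cat window held 4 matches to the CCAAT box, at 230, 85, 55 and 13 bases before the start. At least 1 match was in 33.8% of 32851 RefSeq mouse promoter windows of 250 bases, and how many held 4 was not counted. Among the other members, windows of Gpx4, Sod1 and Prdx4 also held CCAAT matches. The Prdx1 window held 1 match to the antioxidant response element, GCTGAGTCA as read on the gene's strand, 133 bases before the start. This element was present in 10.2% of all windows. The only other member with a match to it was Sod1, with GCGTGGTCA 56 bases before its start. The windows of Prdx5 and Prdx3 held none of the motifs searched. The full cAMP response element TGACGTCA, which contains TGACG, was in no member's window and in 1.55% of all windows, while TGACG was in windows of Sod1, Prdx4 and Gpx4 and in 17.8% of all. GATAA was found in windows of Gpx4 alone among the members and in 22.6% of all windows. A match of letters is a description of the sequence, not a site shown to be bound.

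Some libraries stood apart from the others of their group, and markers of other blood lineages were present beside the erythroid ones. Levels are in FPKM (fragment numbers divided by the length of the gene and by the size of the library), which can be compared between genes of a library. Kit, the stem cell factor receptor of early progenitors, stood at 24.0 ± 1.58 FPKM (SD, n = 3) in the DMSO libraries of the OB set and 21.6 ± 1.15 in those of the PD set. The summed level of 18 erythroid maturation markers was 3792 to 4206 FPKM in the 6 OB-set libraries, and 2594 to 7555 FPKM in the PD set, where DMSO replicate 1 had the highest sum and the other DMSO libraries 3843 and 3763. The summed level of 11 neutrophil and granulocyte precursor markers was 146.1 to 587 FPKM in the OB set, highest in DMSO replicate 1 and compound OB replicate 1. In the PD set it was 11500 to 17320 FPKM with DMSO and 29490 to 36840 FPKM with compound PD. The 8 hepatocyte markers summed to at most 6.44 FPKM in any library. In bulk RNA, fewer cells of a type and less RNA per cell cannot be told apart.

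All 10 members were expressed in every library, over a range from Prdx4 to Gpx1 and Prdx2. The plot of levels by library shows each value. In the DMSO libraries of the OB set, Prdx2 averaged 1339 ± 104 FPKM (SD, n = 3) and Gpx1 1327 ± 141, and the ranges of these highest members overlapped. Sod1 followed at 920 ± 68.8 FPKM, apart from both neighbours in the order. Gpx4 at 448 ± 44.1 and Prdx3 at 364 ± 30.7 FPKM overlapped, and below them came Prdx1 at 243 ± 15.3, Prdx6 at 166 ± 17.7, Cat at 124 ± 10.6, Prdx5 at 87.5 ± 19.2 and Prdx4 at 60.9 ± 6.01 FPKM, each apart from the next. Compound OB left the order of the means as it was, but Prdx1, Prdx6 and Cat then overlapped with their neighbours.

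**Figure D1:**
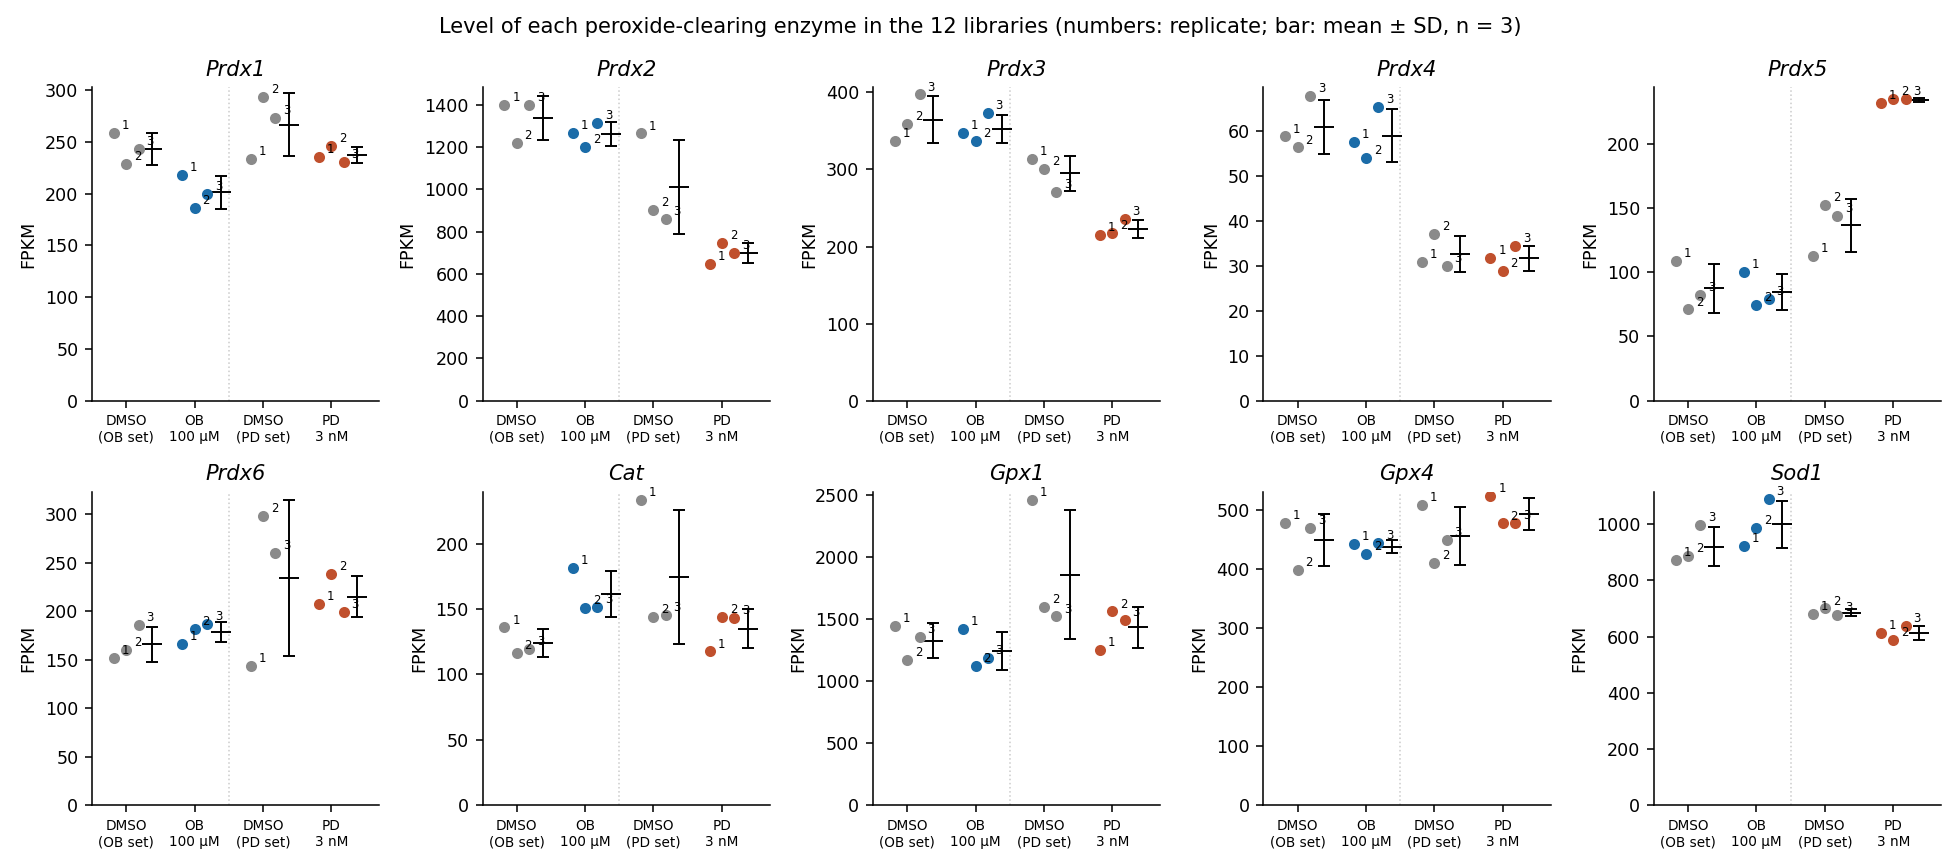
Level in FPKM of each of the 10 enzymes in the 12 libraries, by group; points are libraries with their replicate number, and the bar beside them is the mean ± SD of the group. Cat is higher and Prdx1 lower in every compound OB library than in its DMSO libraries, Prdx5 is higher and Prdx3 lower in every compound PD library than in its own, and DMSO replicate 1 of the PD set lies far from the other DMSO libraries for Prdx2, Prdx6, Cat and Gpx1.

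In the DMSO libraries of the PD set, Gpx1 was highest at 1859 ± 519.5 FPKM and Prdx2 was next at 1009 ± 223, followed by Sod1 at 686 ± 12.8 and Gpx4 at 455 ± 49.7 FPKM. Prdx3 (295 ± 22.4), Prdx1 (267 ± 30.5), Prdx6 (234 ± 80.5), Cat (174.5 ± 51.2) and Prdx5 (136.5 ± 20.9 FPKM) each overlapped with the next in the order. Prdx4 was lowest at 32.6 ± 3.95 FPKM. With compound PD the middle of the order was different. Prdx5 had a mean of 234 FPKM, between Prdx1 at 237 and Prdx3 at 223 FPKM, and these 3 overlapped with one another and Prdx6 at 215 FPKM overlapped with Prdx3. The sum of the 10 members was 4668 to 5321 FPKM in the OB set and 4073 to 5979 in the PD one, or 0.677% to 0.729% and 0.517% to 0.677% of all FPKM of a library. The 2 sets have different gene lists, so their levels may not be on the same scale and were not tested against each other.

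The comparison of compound OB with its DMSO asks which of these enzymes follow the compound. By the limma test across all genes, 0 of the 10 members passed an adjusted p of 0.05, where 0 of 10104 tested genes passed (0%). An unadjusted p under 0.05 was found for 2 members, Cat and Prdx1, and for 372 genes (3.68%). The same 2 were the members whose groups did not overlap, against 8.73% of all genes tested (5.32% higher, 3.4% lower). The log2 difference in (FPKM + 1), compound minus DMSO, was below 0 for 7 of 10 members (6 with quantile normalization, where Gpx4 was at 0.0020) and for 41.3% of all genes, with a median of −0.04 over the members and 0.03 over all genes.

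Catalase was higher in every compound OB library than in any of its DMSO libraries, a difference that did not pass over all genes. Cat stood at 136, 116 and 119 FPKM in DMSO replicates 1, 2 and 3, and at 182, 151 and 152 FPKM in compound OB replicates 1, 2 and 3. The lowest compound library lay above the highest DMSO library, and replicate 1 was the highest of its group in both. The means were 124 ± 10.6 and 161 ± 17.6 FPKM (SD, n = 3), a 30.4% higher level, with a log2 difference of 0.38 (SE 0.11, 95% interval 0.12 to 0.64; limma adjusted p = 1.00). Among the tested genes, 0.91% had a smaller p. In the same libraries the granulocyte and megakaryocyte markers had their highest summed levels in replicate 1 of each group. The 10 early progenitor markers summed to 418 to 539.5 FPKM with DMSO and 545 to 583 FPKM with compound OB. Much of these sums was Lmo2, at 253 ± 33.05 and 271 ± 6.54 FPKM. Of 9 tested early progenitor markers 8 had a log2 difference above 0 (median 0.40, 0 passing). Their unadjusted limma p was under 0.05 for 5 without the replicate number as a block and for 6 with it. Of 17 tested erythroid maturation markers 13 had a log2 difference above 0 (median 0.15, 0 passing), beside 58.8% of all genes. An unadjusted limma p under 0.05 was found for 2 of these markers without the block, beside 3.68% of all genes. With the block it was found for 9 of these markers, beside 14.9% of all genes. Among these 9, Car2 (log2 difference −0.19) and Tfrc (−0.24) were lower and the rest higher. The 18 erythroid maturation markers summed to 3833 to 4170 FPKM with DMSO and 3792 to 4206 FPKM with compound OB. Much of these sums was Car2, at 1181 ± 127.5 and 1041 ± 141.5 FPKM, and Tfrc, at 600 ± 199 and 498 ± 118 FPKM. The sums therefore do not follow the 13 markers that were above 0. The part of the cells of all these marker lists in the level of Cat was not tested.

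Prdx1, the cytosolic peroxiredoxin that is also a well-known target of the oxidant-responsive factor NRF2, was lower in every compound OB library and did not pass either. It stood at 259, 228 and 243 FPKM in the 3 DMSO libraries and at 218, 186 and 199.6 FPKM in the 3 compound libraries. The groups did not overlap, with the highest compound library below the lowest DMSO library. The means were 243 ± 15.3 and 201 ± 15.8 FPKM (SD, n = 3), and the log2 difference was −0.27 (SE 0.093, 95% interval −0.49 to −0.05; limma adjusted p = 1.00).

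Same-numbered libraries of the OB set deviated together, though number 2 did so nearly as much with another number. The differences within numbers are therefore also given. Cat was higher by 0.42, 0.37 and 0.35 on the log2 scale in numbers 1, 2 and 3, and Prdx1 was at −0.25, −0.29 and −0.28. Sod1 was at 0.08, 0.15 and 0.13 and Prdx2 at −0.15, −0.02 and −0.09. In all, 7 of the 10 members had the same sign in the 3 pairs (Cat, Prdx6 and Sod1 higher; Prdx1, Prdx2, Prdx4 and Gpx1 lower), as did 39.9% of all genes. With the replicate number as a block, 7 genes (0.0693%) and 0 members passed the limma test, and 3 members had an unadjusted p under 0.05, against 14.9% of genes. The adjusted p in that fit was 0.0858 for Cat (95% interval 0.26 to 0.50), 0.131 for Prdx1 (−0.38 to −0.16) and 0.293 for Sod1 (0.03 to 0.21). Cat passed when median-ratio scaling was added (0.0386, where 1.49% of genes passed). In the block without this scaling, Cat and Prdx1 passed when replicate 1 was left out, at adjusted p = 0.0086 and 0.0158 by limma, a fit in which 11.3% of genes passed, and Cat passed without replicate 2, at 0.0101, where 1.45% did.

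The ratio of Cat to Prdx1 within a library does not depend on how the library was scaled. It was 0.525, 0.509 and 0.491 in the DMSO libraries and 0.834, 0.809 and 0.761 with compound OB. Its mean was 0.508 ± 0.0173 against 0.801 ± 0.0374 (SD, n = 3), 1.58 times as high. A two-sided exact permutation test gave p = 0.1, the smallest that 3 against 3 libraries allow, and the pair was chosen after its values were seen. In the PD set the ratio was 1.00, 0.492 and 0.533 with DMSO and 0.500, 0.585 and 0.619 with compound PD (exact permutation p = 0.9), and the groups overlapped.

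**Figure D2:**
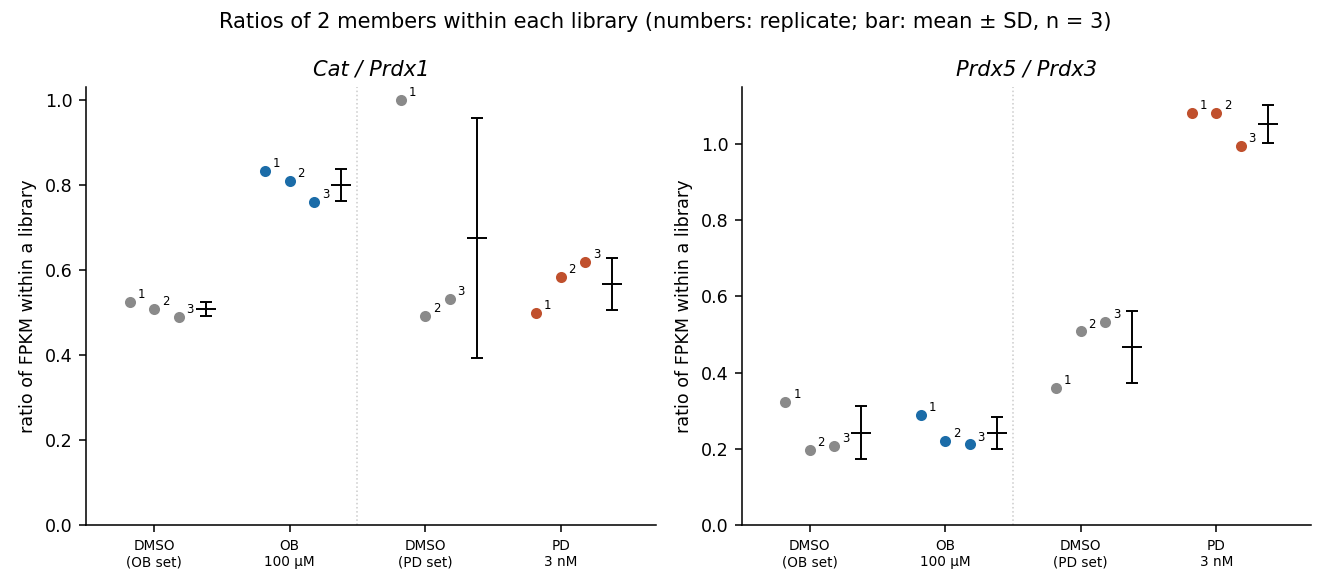
Ratio of FPKM of Cat to Prdx1 and of Prdx5 to Prdx3 within each of the 12 libraries; points are libraries with their replicate number, and the bar beside them is the mean ± SD. Cat to Prdx1 is 0.761 or more in the 3 compound OB libraries and at most 0.525 in their DMSO libraries, and Prdx5 to Prdx3 is 0.995 or more in the 3 compound PD libraries and at most 0.533 in theirs.

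The other members showed smaller differences with compound OB, with overlapping groups. Sod1 was at 872, 889 and 999 FPKM with DMSO and at 923, 987 and 1090 with the compound, the third libraries being highest in both groups (log2 difference 0.12, 95% interval −0.10 to 0.34). Prdx6 averaged 166 ± 17.7 and 178 ± 10.5 FPKM (0.11, −0.14 to 0.35). Prdx2 averaged 1339 ± 104 and 1261 ± 57.1 FPKM (−0.08, −0.28 to 0.11), and Gpx1 averaged 1327 ± 141 and 1243 ± 156 FPKM (−0.10, −0.38 to 0.19). Prdx3, Prdx4, Prdx5 and Gpx4 had log2 differences between −0.05 and −0.03. Their intervals reached at most 0.47 from 0 on the lower side, for Prdx5, whose DMSO libraries stood at 109, 71.1 and 82.7 FPKM. The 10 members together summed to 5248, 4668 and 5321 FPKM with DMSO and to 5121, 4722 and 5091 with compound OB (exact permutation p = 0.6).

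**Figure D3:**
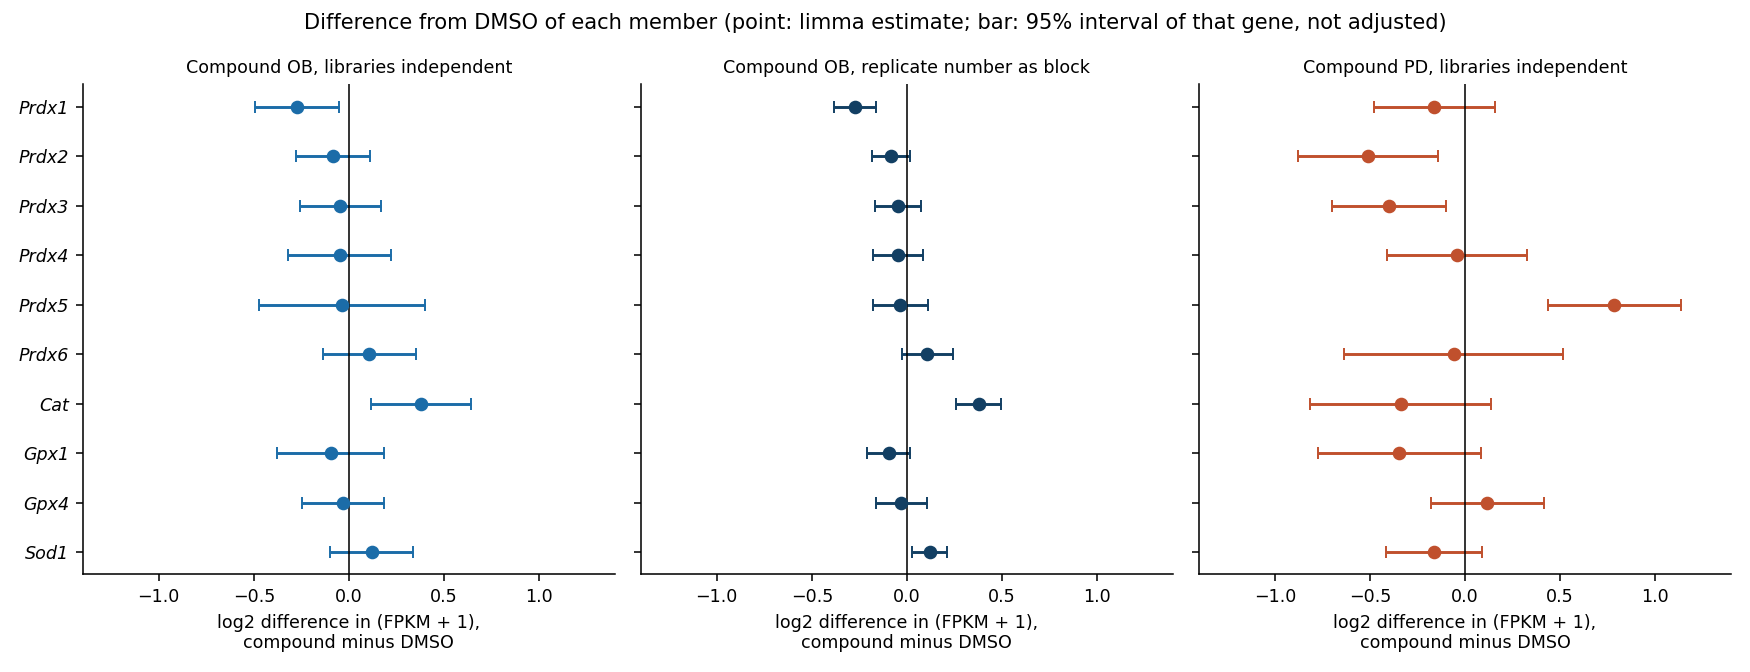
Log2 difference in (FPKM + 1) of each enzyme, compound minus its own DMSO, with the 95% interval of that gene from limma (not adjusted over genes), for compound OB without and with the replicate number as a block and for compound PD. The intervals of Cat and Prdx1 lie on opposite sides of 0 in both fits of compound OB, and with compound PD the interval of Prdx5 lies above 0 and those of Prdx2 and Prdx3 below it.

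Compound PD was compared with its own DMSO libraries in the same way. By the limma test 0 of the 10 members passed, where 4 of 11905 genes did (0.0336%), and 3 members had an unadjusted p under 0.05 (Prdx5, Prdx2 and Prdx3), against 10.7% of genes. The groups did not overlap for 5 of 10 members, Prdx5 higher and Prdx2, Prdx3, Cat and Sod1 lower, against 16.8% of all genes, 13.1% higher and 3.71% lower. The log2 difference was below 0 for 8 of 10 members and for 40.9% of all genes, with medians of −0.16 and 0.06. Beside these values, 17 of 17 tested erythroid maturation markers had a log2 difference below 0 (median −0.43, 0 passing), and 11 of 11 granulocyte precursor markers were above 0 (median 0.84, 1 passing, the ficolin gene Fcnb). The 8 megakaryocyte markers were all above 0 (8 of 8, median 0.91, 0 passing, 8 with an unadjusted limma p under 0.05), and summed to 2332 to 4604 FPKM with DMSO and 4284 to 7582 FPKM with compound PD. Of 7 tested mast cell and basophil markers 5 were above 0 (median 0.75, 0 passing), with sums of 816 to 1559 FPKM and 1379 to 2832 FPKM. In both lists replicate 1 had the highest sum of its group. Of 10 tested early progenitor markers 8 were above 0 (median 0.38, 0 passing, 2 with an unadjusted limma p under 0.05). Their sums were 379 to 485 FPKM with DMSO and 457 to 556 FPKM with compound PD. The part of these markers' cells in the members' differences was not tested.

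Prdx5, the most broadly placed peroxiredoxin, was the member that differed most. It stood at 113, 153 and 144 FPKM in DMSO replicates 1, 2 and 3, and at 232, 235 and 235 FPKM in the 3 compound PD libraries. The compound libraries were nearly equal to one another and all above the DMSO libraries, of which replicate 1 was lowest. The means were 136.5 ± 20.9 and 234 ± 1.73 FPKM (SD, n = 3), 1.72 times as high, with a log2 difference of 0.79 (SE 0.16, 95% interval 0.43 to 1.14; limma adjusted p = 0.137). A smaller p was found for 0.496% of tested genes. Without DMSO replicate 1 the difference was 0.66 and passed (limma adjusted p = 0.0240), in a fit in which 168 of 11959 genes passed (1.4%). With compound OB, Prdx5 had a log2 difference of −0.03 and overlapping groups.

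Prdx3, the peroxiredoxin of mitochondria, was at 314, 300.1 and 270.3 FPKM with DMSO and at 215, 217.5 and 236 FPKM with compound PD. All 3 compound libraries were below the lowest DMSO library. The means were 295 ± 22.4 and 223 ± 11.6 FPKM, a log2 difference of −0.40 (SE 0.13, 95% interval −0.70 to −0.10; limma adjusted p = 0.301). The ratio of Prdx5 to Prdx3, a pair also chosen after its values were seen, was 0.360, 0.508 and 0.533 with DMSO and 1.08, 1.08 and 0.995 with compound PD. Its mean was 0.467 ± 0.0939 against 1.05 ± 0.0495 (SD, n = 3; two-sided exact permutation p = 0.1, the smallest possible). In the OB set the ratio was 0.198 to 0.323 with DMSO and 0.212 to 0.290 with compound OB (exact permutation p = 1).

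Prdx2, the abundant peroxiredoxin of red cells, was at 1265, 904 and 858 FPKM with DMSO and at 648, 745 and 700.3 FPKM with compound PD. The groups did not overlap, and DMSO replicate 1 lay well above the other DMSO libraries. The means were 1009 ± 223 and 698 ± 48.5 FPKM, a log2 difference of −0.51 (SE 0.16, 95% interval −0.88 to −0.14; limma adjusted p = 0.279). Gpx1 showed the same order among the DMSO libraries, at 2457, 1598 and 1521 FPKM, with 1248, 1562 and 1496 FPKM with compound PD. Its groups overlapped, and the log2 difference was −0.34 (95% interval −0.77 to 0.08), or −0.13 without DMSO replicate 1. Cat was at 234, 144.3 and 146 FPKM with DMSO and at 118, 143.85 and 143 FPKM with compound PD, so its groups were kept apart by less than 1 FPKM. Its log2 difference was −0.34 (95% interval −0.81 to 0.14; limma adjusted p = 0.675), or −0.11 without DMSO replicate 1.

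The remaining members were nearer to their DMSO levels. Sod1 was at 680.1, 700.2 and 676 FPKM with DMSO and at 614, 588 and 637.5 with compound PD, groups that did not overlap (log2 difference −0.16, 95% interval −0.41 to 0.09). Prdx1 averaged 267 ± 30.5 and 237 ± 7.83 FPKM (−0.16, −0.48 to 0.16). Gpx4 averaged 455 ± 49.7 and 492 ± 27.1 FPKM (0.12, −0.18 to 0.41). Its reads are uncertain, because a processed copy, Gpx4-ps2, was listed at 33.6 to 45.1 FPKM in this set. No entry of that name was among the symbols used in the OB set, where names split at a hyphen were left out. Whether Gpx4 shared reads with the copy there is not known. Prdx4 averaged 32.6 ± 3.95 and 31.6 ± 2.80 FPKM (−0.04, −0.41 to 0.33). Prdx6 was at 144, 299 and 260.05 FPKM with DMSO and at 207, 239 and 199.4 FPKM with compound PD, and the wide spread of its DMSO libraries left an interval from −0.63 to 0.52 around −0.06. The 10 members summed to 5979, 4838 and 4627 FPKM with DMSO and to 4073, 4482 and 4389 with compound PD (exact permutation p = 0.1, the smallest possible).

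DMSO replicate 1 of the PD set decided several of these values. Without it the groups did not overlap for 8 of 10 members, Prdx5 and Gpx4 higher and Prdx1, Prdx2, Prdx3, Prdx6, Cat and Sod1 lower, but the same was then true of 39.1% of all genes (18.3% higher, 20.8% lower). An unadjusted limma p under 0.05 was then found for 5 members and 20% of genes. The median of the members was −0.15, beside −0.02 over all genes, and Prdx2 was at −0.34, Prdx6 at −0.38, Prdx1 at −0.25, Prdx4 at −0.08 and Gpx4 at 0.20. The erythroid markers had a median of −0.15, with 12 of 17 below 0. The granulocyte precursor markers had one of 0.56, with 10 of 11 above 0 and 4 passing, and the megakaryocyte markers one of 1.215, with 8 of 8 above 0 and 5 passing. The mast cell and basophil markers had one of 0.86, with 5 of 7 above 0 and 1 passing, Prss34, which was lower. The early progenitor markers had one of 0.23, with 7 of 10 above 0 and 0 passing. The map of deviations shows DMSO replicate 1 above its group's mean by 0.35 for Prdx2, 0.46 for Cat and 0.44 for Gpx1 on the log2 scale, and at −0.63 for Prdx6 and −0.26 for Prdx5.

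**Figure D4:**
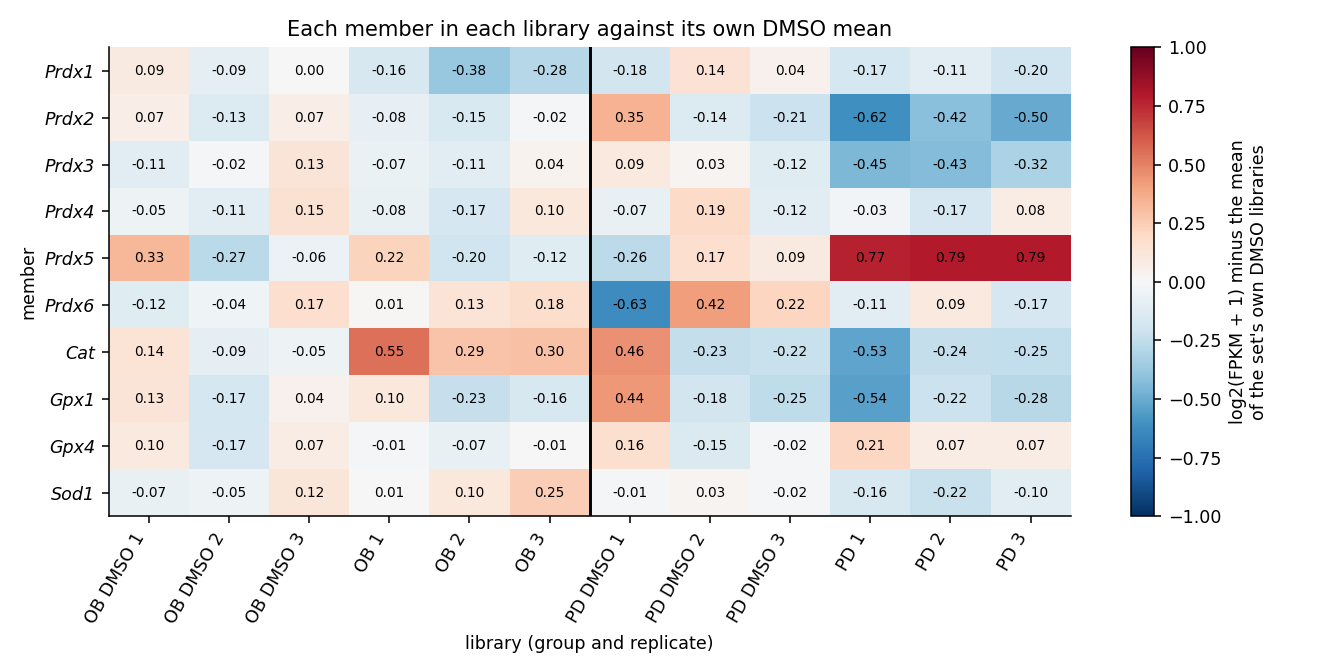
Log2(FPKM + 1) of each enzyme (rows) in each library (columns) minus the mean of its set's own DMSO libraries; red is higher, blue lower, and the black line parts the OB set from the PD set. Prdx5 is at 0.77 to 0.79 in the 3 compound PD libraries, Cat at 0.29 to 0.55 in the 3 compound OB libraries, and DMSO replicate 1 of the PD set departs from the other DMSO libraries for Prdx2, Prdx5, Prdx6, Cat and Gpx1.

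The effects of the compounds were set against each other in one fit of all 12 libraries. No member passed (0 of 10), where 0 of 10353 genes did (0%), and 4 members had an unadjusted limma p under 0.05, against 7.39% of genes (765). The difference of effects, OB minus PD, was −0.82 for Prdx5 (SE 0.24, adjusted p = 0.422), 0.72 for Cat (SE 0.25, adjusted p = 0.502), 0.43 for Prdx2 (SE 0.19, adjusted p = 0.627) and 0.36 for Prdx3 (SE 0.15, adjusted p = 0.621), all by limma. The compounds were given at different doses in separate sets, so compound, dose and set cannot be told apart in these differences.

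Among the partner systems, no gene of any of the 7 lists passed the limma test for either compound, though without DMSO replicate 1 of the PD set Pex13, a peroxisomal import gene, passed with compound PD (log2 difference −0.99, adjusted p = 0.0493). The thioredoxin system, which reduces most peroxiredoxins, had 5 of 10 tested genes higher and 5 lower with compound OB (median log2 difference 0.0008) and 3 higher and 7 lower with compound PD (−0.11). The genes of smallest p were Txnrd3, a thioredoxin reductase, at 6.50 ± 0.849 and 8.003 ± 0.840 FPKM, and Txnip, which binds and inhibits thioredoxin, at 16.1 ± 8.31 and 9.70 ± 4.51 FPKM for compound OB. For compound PD they were Sesn1, a sestrin, at 22.4 ± 5.84 and 17.3 ± 1.23 FPKM, and Txnl1 at 72.6 ± 3.29 and 65.6 ± 2.73 FPKM. With the replicate number as a block, 2 of the 10 genes had an unadjusted limma p under 0.05 for compound OB, beside 14.9% of all genes. Txnip was among them, at 25.65, 11.55 and 10.99 FPKM with DMSO and 14.91, 7.03 and 7.17 with compound OB. Its log2 difference in that fit was −0.65 (limma adjusted p = 0.0722).

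The glutathione system, which serves the glutathione peroxidases, had 8 of 12 genes higher with compound OB (median 0.09) and 2 of 12 higher with compound PD (−0.15). With compound OB, Chac1, an enzyme that degrades glutathione, was at 8.56, 9.59 and 11.6 FPKM with DMSO and at 16.5, 17.3 and 14.7 FPKM with the compound. These groups did not overlap (log2 difference 0.66, SE 0.14; limma adjusted p = 0.588), and Ggct, the gene of another gamma-glutamylcyclotransferase, averaged 11.01 ± 0.738 and 9.46 ± 0.569 FPKM. With compound PD, the cytosolic glutaredoxin Glrx averaged 55.7 ± 2.30 and 79.2 ± 5.32 FPKM (0.50, adjusted p = 0.243 by limma), and Glrx5, a mitochondrial glutaredoxin of iron-sulfur cluster assembly, averaged 253 ± 21.2 and 187 ± 23.1 FPKM (−0.44, adjusted p = 0.317).

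Other peroxidases and dismutases had 4 of 7 tested genes higher with compound OB (median 0.0025) and 6 of 9 with compound PD (0.09). Gpx3, the secreted glutathione peroxidase, was at 10.8, 16.4 and 12.0 FPKM with DMSO and at 34.4, 21.9 and 23.2 with compound PD, groups that did not overlap (log2 difference 0.96, SE 0.23; limma adjusted p = 0.180). In the OB set Gpx3 was at 11.3, 1.33 and 1.37 FPKM with DMSO and at 4.15, 0.550 and 0.910 with compound OB, highest in replicate 1 of each group. The peroxiredoxin-like gene Prxl2a averaged 239 ± 140.1 FPKM with the PD set's DMSO, where replicate 1 alone stood at 401, and 134 ± 23.6 with compound PD. Its relative Prxl2b averaged 8.12 ± 0.996 and 5.24 ± 0.948 FPKM with DMSO and compound OB (log2 difference −0.55), and Prxl2a averaged 153 ± 10.4 and 172 ± 24.2 FPKM there.

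NADPH supply, the source of the reducing power, had 12 of 17 genes higher with compound OB (median 0.03) and 11 of 17 with compound PD (0.13). Idh1, the cytosolic isocitrate dehydrogenase, averaged 35.8 ± 2.72 and 27.6 ± 1.60 FPKM with DMSO and compound OB, and Pgls of the pentose phosphate pathway 96.3 ± 9.56 and 108 ± 3.56. With compound PD, Pgls averaged 50.6 ± 6.99 and 68.3 ± 5.80 FPKM, and Mthfd2 of the mitochondrial folate pathway 156 ± 6.37 and 122.5 ± 13.0. The list called selenoprotein synthesis mixes genes of the machinery on which Gpx1 and Gpx4 depend with genes of other selenoproteins. It had 14 of 19 genes higher with compound OB (median 0.09) and 13 of 20 with compound PD (0.08), which is not a measure of the machinery alone. Msrb1, a selenoprotein that repairs oxidized methionine, averaged 85.2 ± 13.3 and 122 ± 14.6 FPKM with DMSO and compound PD, and Selenom 5.497 ± 1.06 and 9.99 ± 3.79. In the OB set Eefsec averaged 10.1 ± 0.773 and 11.7 ± 1.57 FPKM and Sepsecs 9.08 ± 1.31 and 10.4 ± 1.90.

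Oxidant response regulators and targets had 16 of 22 genes higher with compound OB (median 0.09) and 7 of 22 with compound PD (−0.11). Nqo1, a quinone reductase and standard NRF2 target, averaged 36.2 ± 2.79 and 42.5 ± 4.07 FPKM with DMSO and compound OB and 114 ± 8.25 and 89.7 ± 8.44 with DMSO and compound PD. The exporter gene Abcc4 averaged 6.36 ± 0.964 and 8.13 ± 0.615 FPKM in the OB set, and the regulator Nfe2l1 averaged 41.8 ± 4.79 and 32.5 ± 0.569 in the PD set. Peroxisome assembly and oxidases, the surroundings of catalase, had 16 of 20 genes higher with compound OB (median 0.09) and 11 of 19 with compound PD (0.07). Pex6, a gene of the peroxisomal import machinery, averaged 15.3 ± 4.64 and 18.5 ± 2.21 FPKM with DMSO and compound OB. Over all tested genes 58.8% were higher with compound OB (median 0.03) and 59.1% with compound PD (0.06). With the replicate number as a block, 0 genes of these lists passed for compound OB. An unadjusted limma p under 0.05 was found there for 5 of 12 glutathione genes (Ggct lower, the rest higher). It was found for 7 of 22 oxidant response genes (Gsta4 lower, the rest higher). The counts were 2 of 7 for other peroxidases, 3 of 17 for NADPH supply and 3 of 20 for the peroxisome list. For selenoprotein synthesis it was 0 of 19, and over all genes 14.9%. Without DMSO replicate 1 the PD medians were −0.0040 for the thioredoxin list, −0.06 for the glutathione list, 0.02 for other peroxidases, −0.05 for NADPH supply, −0.03 for selenoprotein synthesis, 0.04 for the oxidant response and −0.0038 for the peroxisome list.

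**Figure D5:**
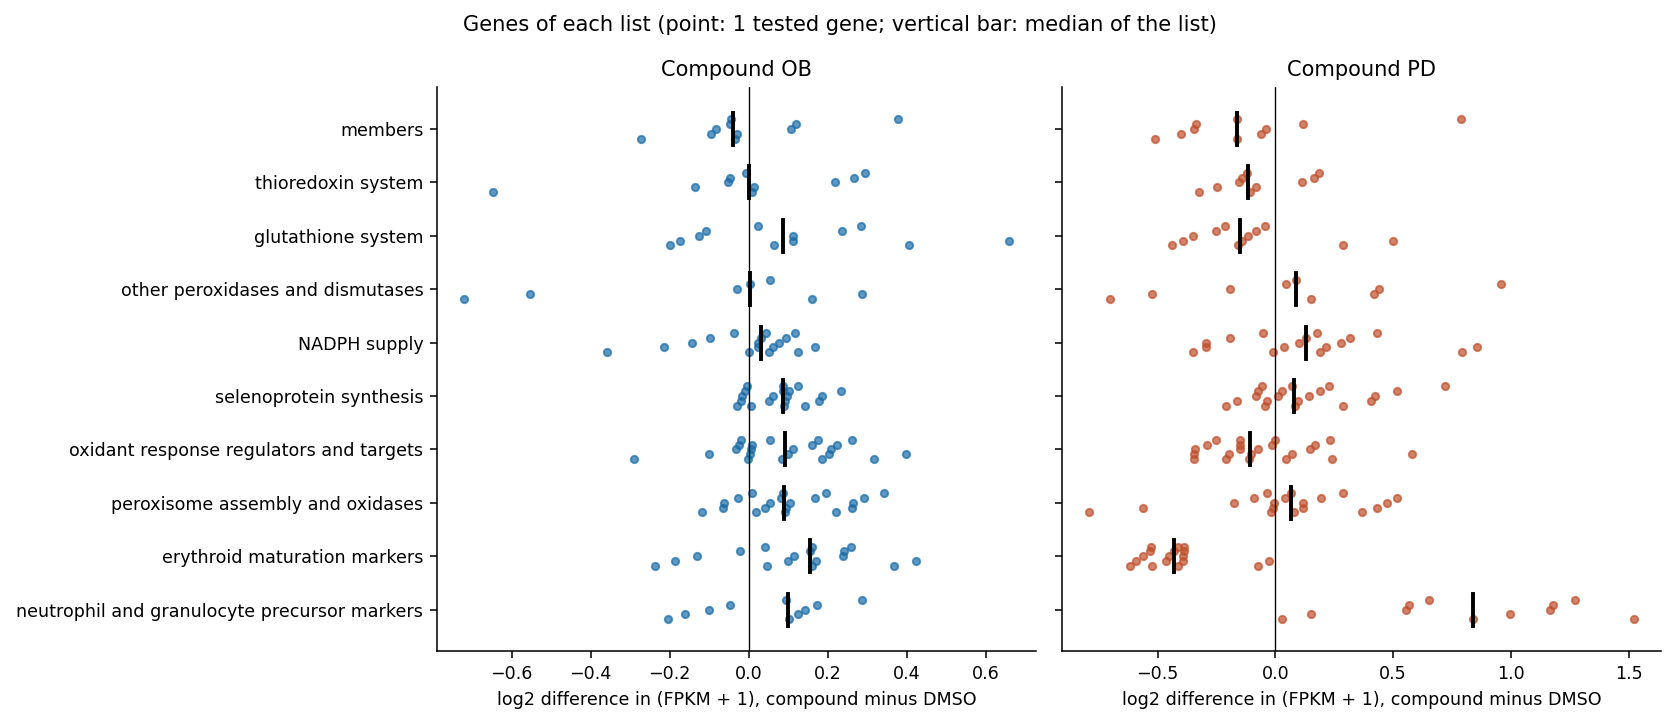
Log2 difference in (FPKM + 1), compound minus its own DMSO, of each tested gene (points) of the 10 enzymes, of 7 related lists and of 2 marker lists, with the median of each list as a vertical bar; the horizontal scales differ between the panels. With compound PD the erythroid maturation markers have a median of −0.43 and the granulocyte precursor markers one of 0.84, while the related lists lie between −0.15 and 0.13.

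Genes whose pattern was most like a member's were found by Pearson's r of log2(FPKM + 1) over the 12 libraries, after the mean of each set was subtracted, among 7219 genes. The libraries share their set's processing and include DMSO replicate 1 of the PD set, so these values are descriptions. For Cat they were Sptb (r = 0.943), the beta spectrin of the red cell skeleton, and Cyth3 (0.936). For Prdx5 they were Agpat2 (0.973) and Plp2 (0.966), for Prdx2 Sec62 (0.948) and Fbxo7 (0.937), and for Prdx3 Top1 (0.928) and Tspan8 (0.924). For Gpx1 Fam210b is given (0.969), and the nearest were for Prdx6 Nup85 (0.977) and Exosc2 (0.976), and for Gpx4 Jak2 (0.922) and Ctsd (0.914). Prdx1 was nearest to Trappc1 (0.895) and Fuca2 (0.840), Prdx4 to Psmb1 (0.884) and Atp5k (0.879), and Sod1 to Scpep1 (0.886) and Rpl32 (0.868). Among the members themselves Prdx2 went with Gpx1 (r = 0.899) and Prdx3 (0.845), and Cat with Gpx1 (0.761), while Prdx5 went against Prdx3 (−0.834) and Prdx2 (−0.724).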

How the data were processed

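RNA was measured in 12 libraries of cultured mouse BFU-E, in 4 groups of 3, and the 2 chromatin samples of the series were not used here. The values are FPKM per gene, deposited by the authors with 2 decimals. Per the submitters' processing notes, STAR was the aligner and mm10 the build. The sources used here do not give its version, the tool behind the FPKM, the annotation or the use of strand, so values of overlapping or near-identical genes are uncertain. The sets list 24054 genes (OB) and 54752 genes (PD). Left out were 380 names split at a hyphen in the OB set, 27 names turned into dates in each set, and 93 repeats of a symbol in the PD set, of which the entry with the higher mean was kept.

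The depth is unknown, since FPKM carry no counts: 9.21% (OB) and 10% (PD) of ratios between low values were whole within 0.05, against 10% by chance. The precision of a value is therefore the SD over its 3 libraries. No 2 libraries had the same value for more than 0.563% of genes.

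Compounds were tested against their own DMSO libraries with limma 3.58.1 (R 4.3.3, statmod 1.5.0), on log2(FPKM + 1) of genes averaging 1 FPKM or more, fitting a mean-variance trend with robust moderation. P-values are two-sided, with Benjamini-Hochberg adjustment over all genes tested and a threshold of 0.05. Fold changes on this scale understate the change of low genes. The difference between compounds is a contrast of 4 group means over all 12 libraries. Same-numbered libraries of the OB set deviated together (correlation of their deviations from the group mean 0.832, 0.434 and 0.652 for numbers 1, 2 and 3). The highest correlation with another number was −0.536, 0.413 and 0.327, so number 2 matched its own number only narrowly. This pairing was read from the data and not from the labels. Ratios and sums were compared by two-sided exact permutation tests. Other pseudocounts, filters, scalings, the replicate block and the omission of each library were tried.

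The members were named by symbol. Of each related list, the genes past the threshold are named, or else the 2 of smallest p with a mean of at least 5 FPKM, and for each member the 2 genes of most similar pattern; a few genes that this rule picks are not reported here. The members and lists were chosen with earlier results of these data known. Coordinates and promoters are RefSeq's of GRCm38.p6, the assembly behind the name mm10. Python 3.11.15 with pandas 2.3.3, numpy 2.4.6 and matplotlib 3.10.9 served for tables and figures.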

Additional observations from a re-analysis of the deposited data

Results flagged for a closer look

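Catalase was singled out because the compounds differed from their DMSO libraries in opposite directions in every library. All 3 compound OB libraries lay above their DMSO libraries (161 ± 17.6 against 124 ± 10.6 FPKM; SD, n = 3), and all 3 compound PD libraries lay below theirs (135 ± 14.9 against 174.5 ± 51.2 FPKM). The difference between the effects was 0.72 on the log2 scale (SE 0.25, 95% interval 0.17 to 1.26). It did not pass over all genes (limma adjusted p = 0.502), and compound, dose and set cannot be told apart in it. In the PD set the groups were parted by less than 1 FPKM, and the DMSO mean rested on replicate 1 at 234 FPKM, beside 144.3 and 146 FPKM. Without that library the difference with compound PD was −0.11 in place of −0.34, and the difference between the effects 0.49 (limma adjusted p = 0.227).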

How the results depend on the processing

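Of 540 log2 differences of the members under an alternative, 506 kept their sign and their side of the threshold, 6 passed where they had not, and 28 changed sign, in 8 of 30 results. Among these, Gpx4 with compound OB was 0.0020 with quantile normalization (−0.115 to 0.0174 with libraries left out, 0.0082 in the block without replicate 1), and Prdx4 in the difference between compounds was 0.0646 with median-ratio scaling, with or without the replicate block, and 0.0261 with quantile normalization (−0.100 to 0.0714 with libraries left out). The others changed sign only with libraries left out: with compound OB Prdx3 (−0.101 to 0.0182), Prdx4 (−0.122 to 0.0306) and Prdx5 (−0.171 to 0.131, and 0.0040 in the block without replicate 1), with compound PD Prdx4 (−0.159 to 0.118, and 0.0534 at most without the block) and Prdx6 (−0.376 to 0.148, and 0.0706 and 0.101 in the block without replicates 2 and 3), and in the difference Prdx6 (−0.0408 to 0.483). The cause was not tested. The count of members passing with compound OB was 1 (Cat, 0.35, limma adjusted p = 0.0386) with the replicate block and median-ratio scaling, and 0 to 2 with libraries left out. With compound PD it was 0 to 1, the 1 being Prdx5 without DMSO replicate 1. Genes passing with compound OB numbered 7 with the replicate block, 150 with the block and median-ratio scaling, and 0 to 1126 with libraries left out (14 without DMSO replicate 1; in the block 1126 without replicate 1 and 147 without replicate 2). With compound PD they numbered 1 without a filter, 2 with plain moderation, 42 with the replicate block, 0 with the block and median-ratio scaling, and 1 to 201 with libraries left out (168 without DMSO replicate 1; in the block 71 without replicate 2 and 83 without replicate 3). For the difference they numbered 3 at a pseudocount of 0.1, 3 without a filter, 6 with plain moderation, and 0 to 15 with libraries left out. Members whose groups did not overlap numbered 2 to 4 with compound OB (4 without DMSO replicate 2 or 3) and 5 to 8 with compound PD over the libraries left out, an alternative chosen after seeing the data. With all libraries the share over all genes was 8.73% (OB) and 16.8% (PD). It was 39.1% without DMSO replicate 1 of the PD set and was not counted for the other omissions. The higher counts of members can therefore not be read as a result about them. In the PD set same-numbered libraries shared only a number (correlations −0.0060, −0.029 and −0.023, none best with its own number), and the block changed no member's call there. In the OB set and the difference the block alone changed no member's call. Fits with 1 library left out keep 2 in that group. The depth is unknown and sets no stated limit.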
